A study of Mus musculus with 3 samples.

Results

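Genes of the secretory pathway and the unfolded protein response were followed across spots of the mouse uterus at pregnancy day 7.5. The module held 35 genes, listed by symbol, of the 32285 genes counted in every library, and all 35 were found. Levels were related to Prl8a2, a hormone of the prolactin family that decidual cells make and secrete. Frozen uterine sections had been laid on Visium slides, whose barcoded spots each take up RNA from the few cells lying over them. The females had eaten normal chow and had been mated with stud males. The labels give neither genotype nor strain, and no treatment other than mating. All samples formed 1 group of 3 libraries: 1 library combined replicates 1 and 2, and 1 library each came from replicates 3 and 4.

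Secreted and membrane proteins enter the endoplasmic reticulum (ER) through the Sec61 channel, lose their signal peptide, are glycosylated and fold with the help of chaperones and disulfide isomerases, while misfolded chains are returned to the cytosol and degraded. When unfolded protein builds up, the ER sensors Ern1 (IRE1), Eif2ak3 (PERK) and Atf6 start the unfolded protein response: Ern1 splices the mRNA of the transcription factor Xbp1, Eif2ak3 favours translation of Atf4, and a cleaved form of Atf6 enters the nucleus. These factors raise transcription of chaperones and of degradation genes, and cells that become professional secretors, such as plasma cells, use the same machinery. Gene counts measure the level of a transcript and not splicing, cleavage or translation, so Xbp1 splicing and the activity of the sensors were not measured here.

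The best known DNA motif of this response is the ER stress response element (CCAAT, any 9 bases, then CCACG), which binds Atf6 and Xbp1 together with NF-Y. RefSeq promoters (GRCm38.p6, 250 bases before to 50 after the gene start, both strands searched) were given for 29 of the 35 genes; Atf6, Manf, Hyou1, Derl1, Sec61a1 and Sec11c had none. The element was found in 9 of these 29 promoters and in 0.137% of 27025 promoters of all genes. The matches are shown because the same motif stood at genes that differed widely in their change with Prl8a2. Each is written 5′ to 3′ on the strand of the gene, with the match in capitals, and capitals that begin with CGTGG mark a match on the opposite strand.
Hspa5, chr2:34772010-34772058, + strand: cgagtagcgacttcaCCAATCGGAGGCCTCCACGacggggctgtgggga
Derl3, chr10:75893227-75893275, + strand: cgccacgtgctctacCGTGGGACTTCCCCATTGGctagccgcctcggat
Dnajc3, chr14:118937812-118937860, + strand: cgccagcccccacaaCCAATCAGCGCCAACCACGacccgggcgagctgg
Syvn1, chr19:6046517-6046565, + strand: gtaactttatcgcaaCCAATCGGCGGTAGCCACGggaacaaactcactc
Pdia6, chr12:17266476-17266524, + strand: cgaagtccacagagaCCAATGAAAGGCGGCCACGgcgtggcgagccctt
Calr, chr8:84847060-84847108, - strand: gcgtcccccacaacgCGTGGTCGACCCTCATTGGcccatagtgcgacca
Creld2, chr15:88819505-88819553, + strand: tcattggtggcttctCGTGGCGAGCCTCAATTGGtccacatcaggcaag
Hsp90b1, chr10:86705518-86705566, - strand: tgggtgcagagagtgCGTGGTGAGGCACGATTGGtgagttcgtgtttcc
Hsp90b1, chr10:86705623-86705671, - strand: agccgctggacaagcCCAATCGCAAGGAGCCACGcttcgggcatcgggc
Canx, chr11:50325785-50325833, - strand: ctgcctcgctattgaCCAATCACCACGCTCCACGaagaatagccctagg

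A shorter variant, ER stress response element II (ATTGG, any base, then CCACG), was found at Herpud1 and Dnajb11, against 0.0444% of all promoters. The composite element that C/EBP and ATF factors share (TGATGNAA) was found at Herpud1 and at Trib3, a known target of Atf4 and Ddit3, against 4.51% of all promoters. Herpud1 is shown because it was the gene whose promoter held both motifs, the variant element first and the composite element second. The unfolded protein response element TGACGTGG was found in 0 of the 29 promoters, against 0.714% of all, which says only that these letters were not in this window. No match of 1 motif overlapped a match of another in these genes.
Herpud1, chr8:94386362-94386402, + strand: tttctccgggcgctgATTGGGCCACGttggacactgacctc
Herpud1, chr8:94386302-94386339, + strand: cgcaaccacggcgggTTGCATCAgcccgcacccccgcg

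The libraries held 16915926 to 29953072 UMIs (counted molecules), with medians of 8038 to 28286 UMIs per spot, and 3939 of 3978 spots reached the minimum of 1000 UMIs. The library of replicates 1 and 2 was the shallowest. Barcodes were shared between libraries (676 to 825 per pair), and spots were always identified by library and barcode. Prl8a2 alone took 2.72% of all UMIs in the library of replicates 1 and 2, 0.753% in replicate 3 and 1.34% in replicate 4, and up to 23.0% of the UMIs of a single spot. In each library the spots were ranked by their Prl8a2 share and divided into 4 classes of equal size, from 0.00875 to 0.0199% of UMIs in the lowest class up to 2.83 to 9.09% in the highest. Counts were then summed per library and class after Prl8a2 was removed, so that its own level did not enter the shares of other genes. Median UMIs per spot were 11673, 27394 and 20374 in the lowest class and 9284, 24759 and 31894.5 in the highest, so depth differed in opposite directions between libraries. Levels are TMM-scaled UMIs per 1000000 (CPM), given in the order replicates 1 and 2, replicate 3, replicate 4.

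The question was how secretory pathway genes differ between tissue with much and with little of this hormone transcript. Between the highest and the lowest Prl8a2 class 27 of 35 genes were higher, 0 were lower and 8 did not pass the test (edgeR's quasi-likelihood test, Benjamini-Hochberg adjusted p under 0.05 and at least 1.5-fold). Of all 13207 genes tested 22.9% were called higher and 25.9% lower. The count of lower genes was 0 as well with DESeq2 and at an unadjusted p under 0.05 in edgeR's test. The median log2 fold change was 0.83 over the 35 genes and -0.07 over all genes tested. The increase was uneven: Derl3, Ern1, Dnajb9 and Trib3 rose by more than 2 on the log2 scale, while Canx, Hsp90b1, Hyou1 and Pdia4 did not pass and their library values overlapped between the classes. For 31 of 35 genes all 3 libraries of the highest class lay above all 3 of the lowest, which held for 29.8% of all genes. For 15 of them, among these Ern1, Xbp1, Dnajb9, P4hb and Derl1, the level rose at each of the 3 steps between neighbouring classes in every library, which held for 8.92% of all genes. The 35 genes together took 0.830, 0.866 and 0.812% of UMIs other than Prl8a2 in the lowest class and 1.29, 1.04 and 1.10% in the highest. The shares were 0.835, 0.843 and 0.868% in the second-lowest class and 0.958, 0.819 and 0.886% in the second-highest. In replicate 3 the summed share thus rose only at the last step. A spot with more of a transcript may hold more cells of a type or more RNA per cell, and these cannot be told apart.

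The size of the shift depends on how sums are scaled. With TMM, 3018 genes were called higher and 3419 lower. With library size alone the split became 1898 higher and 5990 lower, and the median over all genes fell to -0.53. On that scale 12 of the 35 genes still passed, all higher: Xbp1, Atf4, Ern1, Creb3l2, Trib3, Dnajb9, Dnajc3, P4hb, Edem1, Derl1, Derl3 and Sec11c. Changes reported here are relative to the bulk of genes, which TMM sets near 0.

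**Figure D1:**
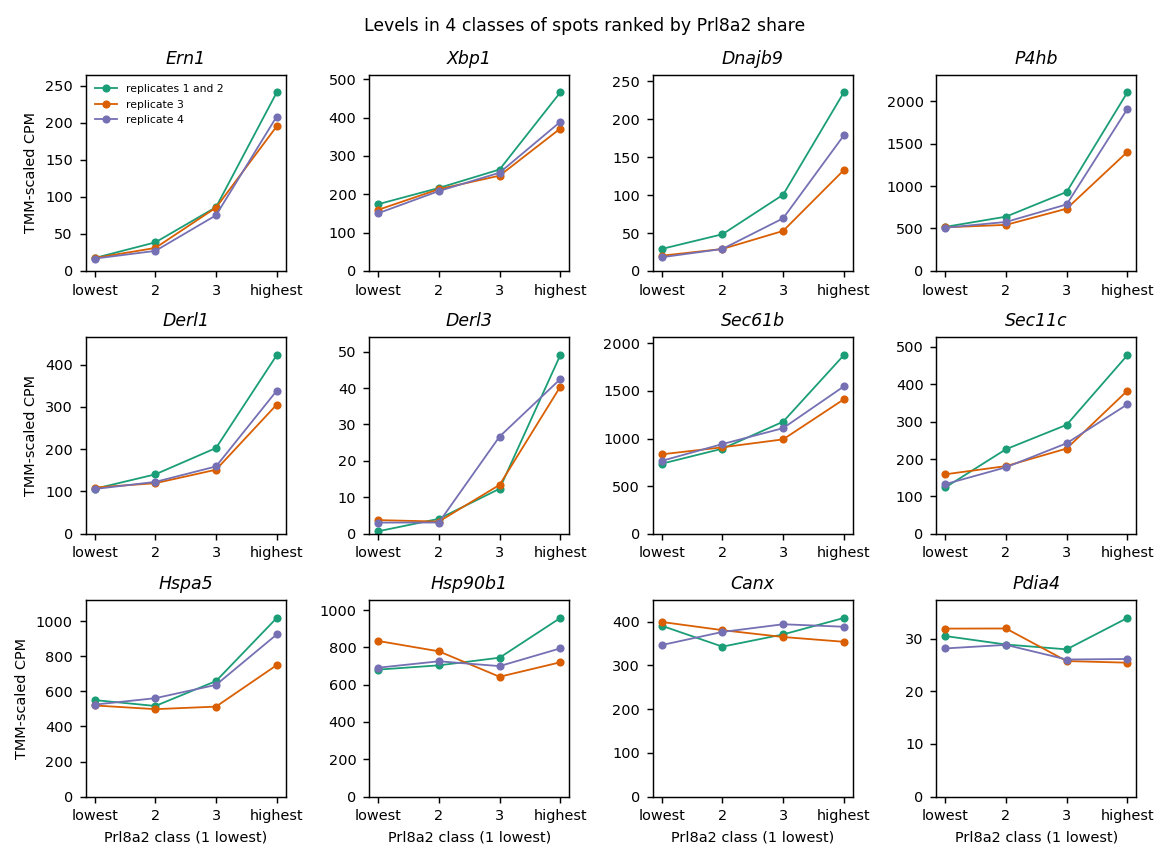
TMM-scaled UMIs per 1000000 (CPM; y axes, from 0) of 12 secretory pathway genes in 4 classes of spots ranked by Prl8a2 share (x axes), 1 line per library. Ern1, Dnajb9, P4hb and Derl1 rise at every step in all 3 libraries, while Hsp90b1, Canx and Pdia4 stay within overlapping ranges.

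Gene positions are those of GENCODE M21 on GRCm38. Among the sensors and transcription factors 7 of 8 genes were higher in the highest class. Ern1 (ENSMUSG00000020715, chr11:106394650-106487852, - strand), the kinase and RNase that splices Xbp1 mRNA, stood at 17.5, 17.5 and 16.7 CPM in the lowest class, 86.2, 85.6 and 75.3 CPM in the second-highest and 241, 195 and 209 CPM in the highest. Its levels climbed at each step in every library without overlap. The log2 fold change between the outer classes was 3.64 ± 0.11 (SE; 12.4-fold, adjusted p = 1.2e-09), rank 380 of 13207 genes by size of increase. Xbp1, the factor that Ern1 acts on, rose from 174, 159 and 150.5 CPM to 466, 371 and 389 CPM, also without overlap and at every step, a log2 fold change of 1.34 ± 0.09 (adjusted p = 1.2e-07). Eif2ak3, the kinase of the translational branch, had 9.33, 8.98 and 7.96 CPM in the lowest and 11.2, 12.2 and 10.6 CPM in the highest class. It was measured with 179 UMIs in each of these classes, and its log2 fold change of 0.37 ± 0.22 did not pass (adjusted p = 0.16). The transcripts of the sensors thus showed unequal changes, with Atf6 between them at 0.93 ± 0.11 (adjusted p = 2.6e-05).

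Atf4, the factor translated under Eif2ak3 activity, rose from 224, 242 and 259 CPM to 561, 442 and 517 CPM (1.06 ± 0.10, adjusted p = 2.5e-06). Creb3l2, a membrane-bound factor that promotes transport of secretory cargo, reached most of its change by the second-highest class: it had 36.6, 29.4 and 31.8 CPM in the lowest, 65.0, 69.5 and 59.5 CPM in the second-highest and 73.8, 72.4 and 86.1 CPM in the highest class (1.26 ± 0.12 for the outer classes, adjusted p = 4.3e-06). Trib3 (ENSMUSG00000032715, chr2:152337422-152344032, - strand), a pseudokinase induced downstream of Atf4 and Ddit3, was scarce, with 56 UMIs over the lowest class and at least 9 per library. Its levels were 1.53, 3.74 and 2.60 CPM there and 13.6, 13.8 and 15.7 CPM in the highest class (2.44 ± 0.27, adjusted p = 1.2e-05). Ddit3 (CHOP; ENSMUSG00000025408, chr10:127290774-127296288, + strand), a factor linked to cell death under lasting ER stress, went from 30.0, 31.1 and 33.7 CPM to 56.7, 45.6 and 71.6 CPM (0.86 ± 0.13, adjusted p = 1.2e-04). Both genes were above their lowest class in all 3 libraries, but in fine classes both had lower values in the spots with most Prl8a2, as given below.

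**Figure D2:**
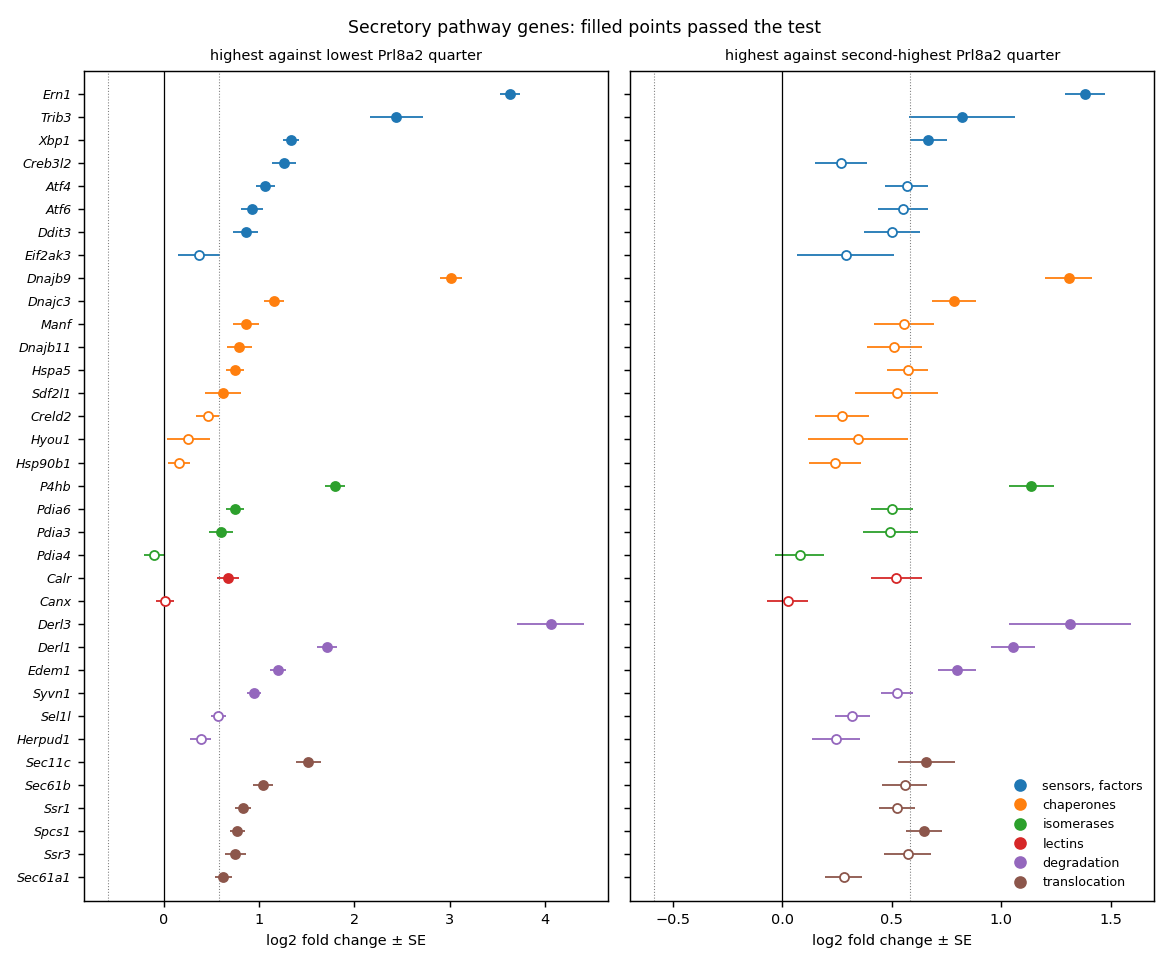
Log2 fold change ± SE (x axes) of the 35 genes between the highest and the lowest class (left) and the highest and the second-highest class (right), coloured by role, with dotted lines at 1.5-fold. Filled points passed the test: 27 genes at left and 11 at right, none of them lower.

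Of the 9 chaperones and co-chaperones 6 were higher. Dnajb9 (ENSMUSG00000014905, chr12:44205559-44210326, - strand), a J-domain co-chaperone of Hspa5 that also recruits misfolded chains for degradation, had 29.0, 20.1 and 18.1 CPM in the lowest class and 235, 133 and 179 CPM in the highest. Its second-highest class lay between them at 100.5, 52.8 and 69.4 CPM. Replicate 3 was the lowest library in both upper classes, the outer classes did not overlap, and the log2 fold change was 3.01 ± 0.12 (adjusted p = 5.2e-09). Dnajc3, another J-domain partner of Hspa5, rose from 98.9, 116 and 104 CPM to 269.9, 218 and 228 CPM (1.16 ± 0.10, adjusted p = 1.7e-06). Hspa5 (BiP), the main Hsp70 of the ER, changed less: 551, 520.0 and 525 CPM in the lowest, 659, 513 and 637 CPM in the second-highest and 1019, 750.3 and 925 CPM in the highest class (0.75 ± 0.09, adjusted p = 2.8e-05). The last step was the larger one in each library.

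Manf, a secreted stress-induced protein that binds Hspa5, rose by 0.86 ± 0.14 and Dnajb11 by 0.79 ± 0.13 on the log2 scale (adjusted p = 1.8e-04 and 1.9e-04). Sdf2l1, a partner of Dnajb11, had 25.4, 57.9 and 43.8 CPM and then 60.8, 65.6 and 64.0 CPM. Its lowest class varied widely between libraries, and its call (0.62 ± 0.19, adjusted p = 0.012) ended without replicates 1 and 2 (0.39), without replicate 4 (adjusted p = 0.059) and without the library block (adjusted p = 0.13). Hsp90b1 (GRP94), the Hsp90 of the ER, had 681, 835 and 691 CPM in the lowest and 958, 720.3 and 795 CPM in the highest class. The libraries overlapped, with replicate 3 lower in the highest class and the others higher, and the log2 fold change was 0.16 ± 0.12 (adjusted p = 0.25). Creld2 (0.46 ± 0.12, adjusted p = 0.0062, under 1.5-fold) and Hyou1 (0.26 ± 0.22, adjusted p = 0.33) did not pass either. Creld2, an ER-resident protein of the stress response, passed without replicate 3, at 0.65.

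The disulfide isomerases, which form and rearrange cystine bridges in hormones and matrix proteins, were divided. P4hb (ENSMUSG00000025130, chr11:120560298-120573253, - strand), protein disulfide isomerase and the beta subunit of prolyl 4-hydroxylase, rose from 519, 514 and 509 CPM to 2102, 1402 and 1907 CPM. Replicate 3 was lowest in the highest class, the classes did not overlap, and the log2 fold change was 1.79 ± 0.10 (adjusted p = 5.9e-08). Pdia6 rose by 0.75 ± 0.10 (adjusted p = 3.5e-05). Pdia3, which works with the lectins on glycoproteins, went from 213, 370.4 and 326 CPM to 399, 422 and 526 CPM (0.60 ± 0.13, adjusted p = 0.0014). Its call was lost without replicates 1 and 2 (0.47), without replicate 4 (0.55) and without the library block (adjusted p = 0.072). Pdia4 had 30.5, 31.9 and 28.2 CPM and 34.0, 25.5 and 26.2 CPM, with overlapping libraries and a log2 fold change of -0.10 ± 0.11 (adjusted p = 0.43).

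The lectins calreticulin and calnexin hold glycoproteins in the ER until they are folded, Calr as a soluble and Canx as a membrane protein. Calr stood at 649, 884 and 711 CPM in the lowest and 1302, 1109 and 1147 CPM in the highest class (0.67 ± 0.12, adjusted p = 3.8e-04), and its call was lost without replicates 1 and 2 (0.54). Canx had 391, 399.6 and 347 CPM and 409, 354 and 389 CPM. Its libraries overlapped, and the log2 fold change was 0.02 ± 0.09 (adjusted p = 0.88). Both promoters hold the ER stress response element shown above. The 9 genes with that element had a median log2 fold change of 0.75 (range 0.02 for Canx to 4.06 for Derl3), and 6 of them passed. The 20 genes with a promoter and no exact match to that element had a median of 0.85 (range -0.10 to 3.64), and 16 passed. Among the 20 were Herpud1 and Dnajb11, which hold the shorter variant. Over all genes tested 22.9% were called higher.

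Of the 6 genes of ER-associated degradation 4 were higher. Derl3 (ENSMUSG00000009092, chr10:75893413-75895941, + strand), a membrane channel component found mainly in secretory cells, was close to absent in the lowest class: 54 UMIs in all and 4 in the library of replicates 1 and 2, or 0.678, 3.74 and 3.06 CPM. Its levels were 12.4, 13.4 and 26.7 CPM in the second-highest and 49.0, 40.4 and 42.5 CPM in the highest class, where the libraries differed little from each other. The log2 fold change of 4.06 ± 0.35 was the largest of the 35 genes (adjusted p = 1.5e-06). Derl1, the widely expressed relative, rose from 106, 109 and 106 CPM to 422, 305 and 338 CPM at every step in every library (1.71 ± 0.10, adjusted p = 7.0e-08).

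Edem1, which trims mannose from misfolded glycoproteins, rose by 1.20 ± 0.09 (adjusted p = 4.0e-07). The ubiquitin ligase Syvn1 (HRD1) went from 47.3, 36.7 and 42.9 CPM to 94.2, 65.6 and 85.9 CPM (0.94 ± 0.07, adjusted p = 6.0e-07). Its partner Sel1l had 56.3, 50.9 and 50.2 CPM and 82.4, 76.0 and 75.8 CPM, did not overlap, and missed only the minimum fold (0.57 ± 0.08, adjusted p = 7.6e-05). It passed with relative log expression scaling and with DESeq2 (0.62 each), with at least 5000 UMIs per spot (0.64) and without replicates 1 and 2 (0.62). Herpud1, a stress-induced scaffold of the ligase, had 58.5, 59.4 and 66.0 CPM and 96.6, 66.0 and 81.3 CPM (0.39 ± 0.11, adjusted p = 0.0083), under the minimum fold.

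All 6 genes of translocation and signal peptide processing were higher. Sec11c, a catalytic subunit of signal peptidase, rose from 124, 159 and 133 CPM to 478, 383 and 346 CPM, with no overlap (1.52 ± 0.13, adjusted p = 1.5e-06). Sec61b, a small subunit of the channel, went from 736, 834 and 766 CPM to 1876, 1412 and 1548 CPM (1.04 ± 0.10, adjusted p = 4.7e-06), while the pore subunit Sec61a1 rose by 0.63 ± 0.09 (adjusted p = 5.5e-05). The translocon-associated subunits Ssr1 and Ssr3 rose by 0.83 ± 0.08 and 0.75 ± 0.11, and the signal peptidase subunit Spcs1 by 0.77 ± 0.08 (adjusted p = 4.9e-06, 8.1e-05 and 7.3e-06).

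Prl8a2 made up 1.06, 0.299 and 0.357% of UMIs in the second-highest class and 9.09, 2.83 and 4.10% in the highest. A further comparison asked whether the genes still differed between the highest and the second-highest class. There 11 of 35 were higher and 0 lower, against 10.9% higher and 13.1% lower of all genes tested; 0 were lower also with DESeq2 and at an unadjusted p under 0.05 in edgeR's test. The 11 were Xbp1 (0.67 ± 0.08), Ern1 (1.38 ± 0.09), Trib3, Dnajb9 (1.31 ± 0.11), Dnajc3 (0.78 ± 0.10), P4hb (1.14 ± 0.10), Edem1 (0.80 ± 0.09), Derl1 (1.05 ± 0.10), Derl3 (1.31 ± 0.28), Sec11c (0.66 ± 0.13) and Spcs1 (0.65 ± 0.08), as log2 fold changes. All 35 estimates were above 0, with a median of 0.52 against -0.06 over all genes. The count moved with the settings: 26 with no minimum fold, 17 with relative log expression scaling, 17 with DESeq2, and 5 with library size alone (Ern1, Dnajb9, P4hb, Derl1 and Derl3), where the split over all genes was 935 higher and 3028 lower against 1436 and 1732. Trib3 (0.82 ± 0.24, adjusted p = 0.021) did not pass without replicates 1 and 2 (adjusted p = 0.10), without replicate 4 (adjusted p = 0.17) or without the library block (adjusted p = 0.099). Between the second-lowest and the lowest class 3 genes were higher and 0 lower (3.88% and 0.712% of all genes), and between the second-highest and the lowest 9 were higher and 0 lower (15.3% and 12.3%), in edgeR's test, with 0 lower at an unadjusted p under 0.05 in both. These comparisons share the lowest or the highest class.

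**Figure D3:**
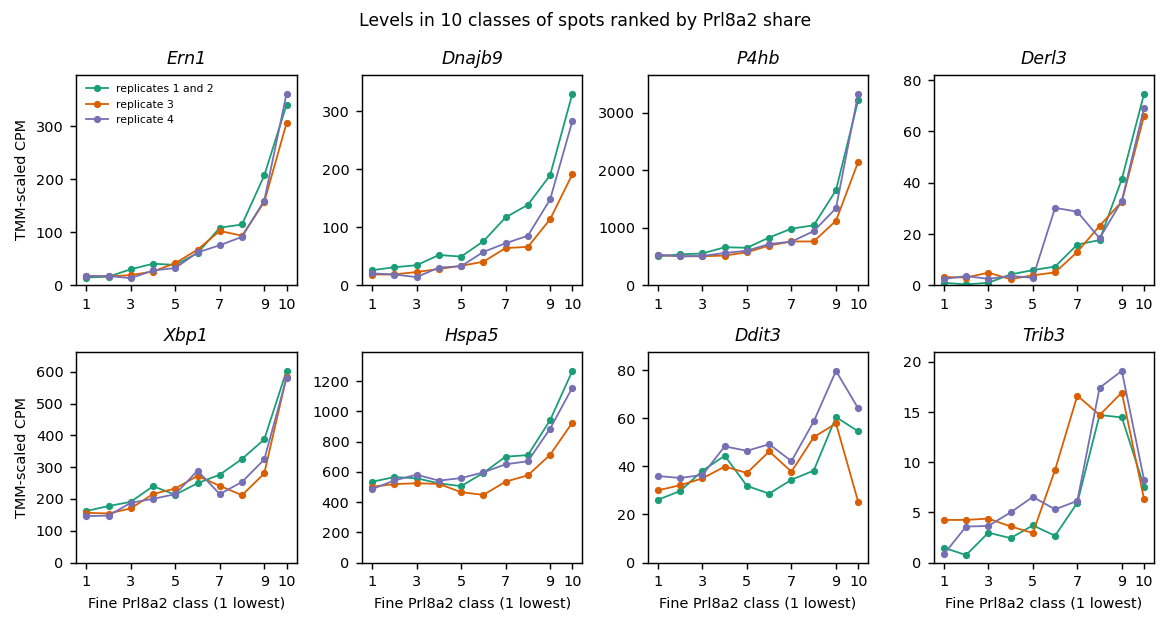
TMM-scaled UMIs per 1000000 (CPM; y axes, from 0) in 10 fine classes of spots ranked by Prl8a2 share (x axes), 1 line per library. Ern1, Dnajb9, P4hb and Xbp1 are highest in the top fine class in every library, while Ddit3 and Trib3 are lower there than in the fine class below.

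Finer classes separated the genes further. When the spots were divided into 10 fine classes, Ern1 went from 207, 157 and 159.8 CPM in the second-highest fine class to 339.9, 306 and 361 CPM in the highest, and P4hb from 1652, 1123 and 1340.0 CPM to 3223, 2147 and 3331 CPM. In contrast Trib3 went from 14.5, 16.9 and 19.1 CPM down to 7.55, 6.30 and 8.23 CPM, and Ddit3 from 60.5, 57.9 and 79.7 CPM down to 54.5, 25.2 and 64.1 CPM. For both genes all 3 libraries showed the lower value in the highest fine class. The gap of Ddit3 was widest in replicate 3, and its libraries overlapped between the fine classes. The highest fine class of replicate 3 lacked spots of a region that the other libraries held there, as given below.

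The test of these fine classes was added after their values had been seen. It called 13 of 35 genes higher and 1 lower, against 7.28% and 7.30% of 12232 genes. The 13 were Xbp1, Ern1, Dnajb9, Dnajc3, Calr, Pdia3, P4hb (1.08 ± 0.11), Derl1, Derl3, Sec61b, Sec11c, Ssr3 and Spcs1. Of these, Derl3 (0.99 ± 0.33) did not pass when any 1 library was left out (adjusted p = 0.068 to 0.12), Pdia3 and Sec11c did not without replicate 4 (adjusted p = 0.10 and 0.15), and Dnajb9, Pdia3 and Derl3 did not without the library block (adjusted p = 0.076, 0.17 and 0.10). Trib3 fell (-1.22 ± 0.37, adjusted p = 0.021), a call that ended without replicates 1 and 2 (adjusted p = 0.069), without replicate 4 (adjusted p = 0.14) and without the library block (adjusted p = 0.076). Ddit3 had a log2 fold change of -0.49 ± 0.18 (adjusted p = 0.056) and did not pass, while it did with library size alone (-0.78). On that scale 2 genes were higher (Ern1 0.67 and P4hb 0.79) and the split over all genes was 387 higher and 1919 lower, against 891 and 893.

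Clustering of the spots, without the module, Prl8a2 or any listed gene, gave 12 regions, each tested against the mean of the others in 1 fit of 6594 genes. Prl8a2 was highest in region 12 (led by Tnnc1, Fbln7 and Htra1), which had 54 spots in the library of replicates 1 and 2, 47 in replicate 4 and 0 in replicate 3. It was second in region 8 (Sprr2h, Psca and Ptx3), with 135, 113 and 71 spots. All spots of both regions lay in the highest Prl8a2 class. In region 12, 24 of 35 genes were higher and 0 lower (20.5% and 19.6% of all genes tested), and 0 were lower with DESeq2 or at an unadjusted p under 0.05 in edgeR's test. With library size alone 13 were higher and 2 lower (Sdf2l1 -0.72 and Pdia4 -1.02), with 846 genes higher and 2428 lower over all, against 1352 and 1294. In region 8, 27 were higher and 1 lower (17.7% and 18.7%). Of the 35 genes 16 had their highest mean level in region 8, 13 in region 12 and 4 in region 3, and 22 had their lowest in region 10, led by the muscle genes Fbxl22 and Mylk. The same count was not made over all genes tested, and the means of region 12 lack replicate 3.

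**Figure D4:**
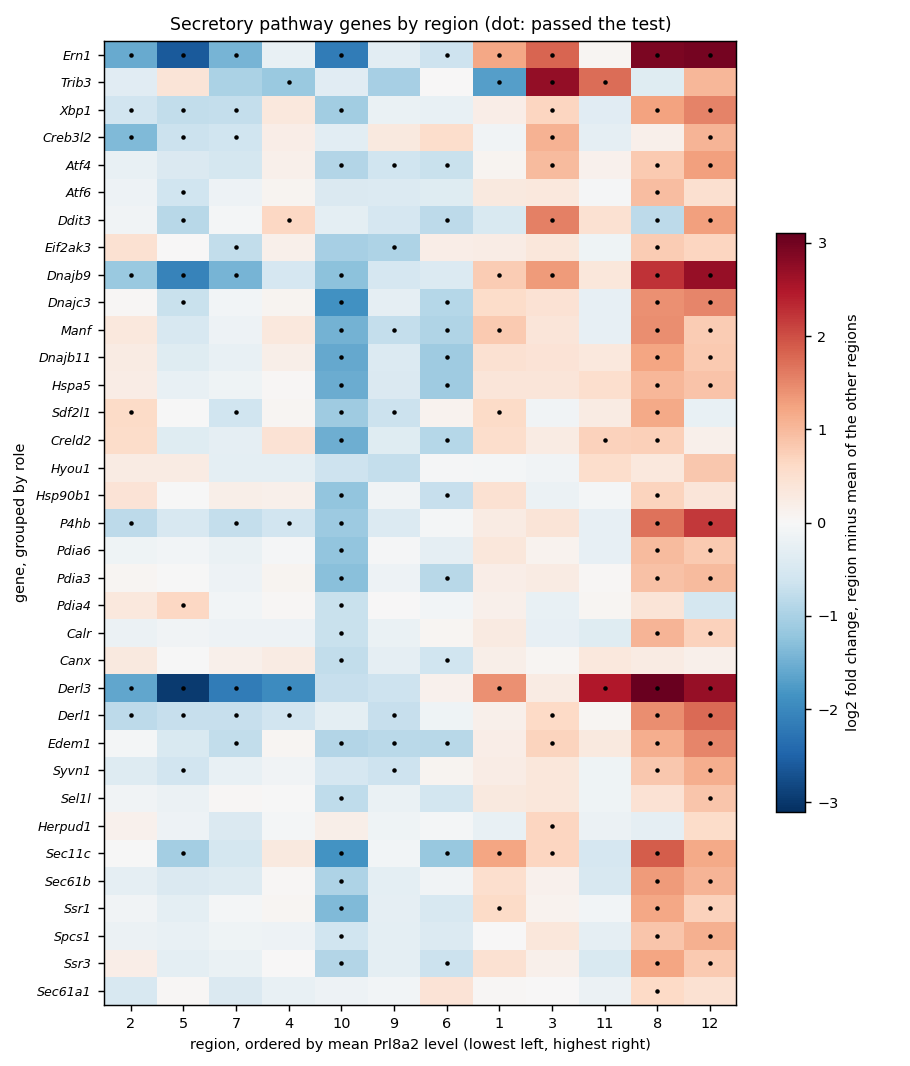
Log2 fold change (colour) of each of the 35 genes (rows, grouped by role) in each of 12 regions (columns, ordered by mean Prl8a2 level) against the mean of the other regions; dots mark tests passed. Region 8 has 27 genes higher and 1 lower and region 12 has 24 higher, while region 10 has 24 lower.

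Both Prl8a2-rich regions shared high Ern1: 301, 289 and 327 CPM in region 8 and 303 and 322 CPM in the 2 libraries of region 12. Ern1 was 2.91 ± 0.09 above the mean of the other regions in region 8 and 2.96 ± 0.12 in region 12 (log2, adjusted p = 2.0e-25 and 2.9e-21). Dnajb9 was 2.25 ± 0.09 and 2.69 ± 0.12 above it, P4hb 1.68 ± 0.07 and 2.20 ± 0.08, and Derl3 3.07 ± 0.18 and 2.69 ± 0.30. Ddit3 parted the regions: it had 25.2, 17.2 and 22.5 CPM in region 8 and 67.3 and 92.8 CPM in region 12, without overlap. Against the other regions it was lower in region 8 (-0.82 ± 0.16, adjusted p = 6.2e-05) and higher in region 12 (1.27 ± 0.18, adjusted p = 3.7e-07). At the coarser clustering resolution of 0.3 the region with most Prl8a2 had a log2 fold change of -0.090 for Ddit3. It was 0.15 when the regions came from the other gene set and 0.35 with a minimum of 5000 UMIs per spot, and Ddit3 passed in none of these 3 settings, for reasons that were not tested. In each of them the region with most Prl8a2 had sums from 3 libraries, against 2 for region 12, so its spots were another set.

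A direct test of region 12 against region 8, added after these values had been seen, called 3 genes higher and 4 lower (10.9% and 9.65% of all genes tested). Ddit3 was higher by 1.91 ± 0.24 (adjusted p = 7.6e-08), Creb3l2 by 0.81 ± 0.15 and Herpud1 by 0.78 ± 0.21 on the log2 scale. Sdf2l1 (-1.31 ± 0.28), Pdia4 (-0.86 ± 0.28), Sec11c (-0.64 ± 0.16) and Manf (-0.61 ± 0.15) were lower. Sdf2l1, for example, had 84.6, 84.8 and 89.6 CPM in region 8 and 38.5 and 31.3 CPM in region 12. Without replicate 4, 1 gene was still called higher (Ddit3, 1.74) and 0 lower, and without replicates 1 and 2, 4 were higher and 2 lower; in each case region 12 rests on 1 library, whose spread is taken from the other sums. With library size alone 3 genes were higher and 6 lower, with 562 and 910 over all genes against 718 and 636. The direct test was run only on the regions of the main clustering.

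Region 3 (Srd5a1, S100a8 and Mrgprg) held another combination, with 11 genes higher and 0 lower in edgeR's test (20.3% and 13.8% of all genes tested; 1 lower at an unadjusted p under 0.05). Between 48.6 and 51.7% of its spots lay in the highest Prl8a2 class. Trib3 had 23.1, 25.8 and 30.7 CPM there, against 3.02, 6.49 and 1.13 CPM in region 8, and was 2.73 ± 0.23 above the mean of the other regions (adjusted p = 1.8e-12). Ddit3 had 85.5, 83.9 and 113 CPM (1.55 ± 0.10, adjusted p = 7.3e-16). Of the 8 sensors and factors 6 were higher in region 3 (Xbp1, Atf4, Ern1, Ddit3, Creb3l2 and Trib3), but of the 9 chaperones only Dnajb9 (1.32 ± 0.09), of the 4 disulfide isomerases and 2 lectins none, of the 6 degradation genes 3, and of the 6 translocation genes only Sec11c. In region 8, 5 of 8 sensors and factors were higher and 1 lower, with 8 of 9 chaperones, 3 of 4 isomerases, 1 of 2 lectins, 4 of 6 degradation genes and all 6 translocation genes higher. The difference between regions 3 and 8 was not tested. In the second-highest Prl8a2 fine class region 3 supplied 23.2 to 35.2% of spots, and in the highest 6.18 to 12.96%, where region 8 supplied 47.7 to 85.2%. Region 12 supplied 29.2% of spots in the highest fine class of replicates 1 and 2 and 41.3% in replicate 4. In replicate 3 it supplied 0, and region 8 supplied 85.2%, so this fine class held other tissue there. Region 1, which had the lowest mean Trib3 of all regions (1.63 CPM), supplied 40.1, 32.4 and 25.0% of spots in the second-highest fine class and 0 in the highest.

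The module was also read in the regions richest in genes of other cell types. In region 10, where the smooth muscle gene Myh11 was highest, 0 genes were higher and 24 lower (20.4% and 16.5% of all genes tested), with 0 higher also by DESeq2 and at an unadjusted p under 0.05 in edgeR's test. Among the 24 were Hspa5 (-1.54 ± 0.12), Dnajc3 (-1.87 ± 0.15) and Sec11c (-1.86 ± 0.16). Region 10 had medians of 3971.5, 13421.5 and 8882 UMIs per spot, and 26 spots in replicate 3. With a minimum of 5000 UMIs per spot the region with most Myh11 had 16 genes lower. In region 2 (Gzmf, Gzme and Gzmd), where the natural killer cell gene Prf1 was highest, 1 was higher (Sdf2l1, 0.60 ± 0.12) and 7 lower (19.4% and 12.9%): Xbp1, Ern1, Creb3l2, Dnajb9, P4hb, Derl1 and Derl3. Ern1 had a log2 fold change of -1.55 ± 0.14 there. Library size alone gave 4 higher and 4 lower, with 2134 genes higher and 584 lower over all, against 1282 and 852. Another reference, the pooled other spots, gave 0 higher, with 872 and 1330 over all. In region 11 (Prl7a1, Plet1 and Pfpl), where the visceral endoderm gene Apoa1 was highest, 3 were higher and 0 lower in edgeR's test (21.4% and 19.5%; 12 lower at an unadjusted p under 0.05, 0 by DESeq2): Derl3 (2.48 ± 0.20), Trib3 (1.74 ± 0.34) and Creld2 (0.70 ± 0.13). That count changed with the clustering, from 8 higher and 0 lower at resolution 0.3 to 0 higher and 14 lower at resolution 1.0. Apoa1 had an unscaled mean of 123 CPM there, and region 11 is not read here as visceral endoderm alone. It was also rich in Prl8a2, with an unscaled mean of 21301.5 CPM against 19503.3 CPM in region 3. Between 40.5 and 59.1% of its spots lay in the highest Prl8a2 class. The median log2 fold change of the 35 genes in region 11 was -0.06, against -0.04 over all genes tested.

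Other genes of the pathway were read from lists. Of 20 further translocation genes 14 were higher in the highest than in the lowest class and 0 lower (median 0.91); Sec61g, the smallest channel subunit, went from 484, 751 and 792 CPM to 1286, 1518 and 1803 CPM (1.20 ± 0.08). Of 20 genes of N-glycosylation and glycan trimming 12 were higher and 0 lower (median 0.66), among them the oligosaccharyltransferase subunit Rpn2 (0.82 ± 0.08). Of 20 further degradation genes 11 were higher and 0 lower (median 0.71), with Edem2 going from 52.1, 63.0 and 53.0 CPM to 337, 333 and 318 CPM (2.56 ± 0.11). Of 36 genes of ER to Golgi transport 19 were higher and 0 lower (median 0.65), among them the SNARE Bet1, from 84.1, 78.1 and 74.6 CPM to 486, 433 and 371 CPM (2.44 ± 0.09). The median over all genes was -0.07, and 22.9% were higher. At an unadjusted p under 0.05 in edgeR's test 0, 1, 0 and 2 genes of these lists were lower, in the order given, and DESeq2 called 0 lower in each.

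The 25 measured genes of ER folding and disulfide formation had 10 higher and 3 lower (median 0.42), against 22.9% and 25.9% of all genes. Ero1l, the oxidase that recharges disulfide isomerases, rose from 22.0, 27.4 and 21.1 CPM to 57.3, 87.3 and 104 CPM (1.78 ± 0.18). The 3 that fell were FK506-binding prolyl isomerases, a family in which Fkbp10 serves collagen folding: Fkbp10 (-2.03 ± 0.11, from 109, 102 and 109.9 CPM to 26.3, 23.1 and 28.7 CPM), Fkbp7 (-1.59 ± 0.16) and Fkbp14 (-1.53 ± 0.12). Of 21 measured targets of the integrated stress response, the translational arm around Atf4, 7 were higher and 6 lower (median 0.25), against 22.9% and 25.9% of all genes. Ppp1r15a (GADD34), which restores translation, rose from 13.7, 13.6 and 18.5 CPM to 107, 98.4 and 142 CPM (2.92 ± 0.15). Eif4ebp1, a repressor of cap-dependent translation (2.42 ± 0.09), and the asparaginyl-tRNA synthetase Nars (2.14 ± 0.13) rose too, while the metabolic enzymes Pck2 (-2.23 ± 0.11), Aldh18a1 (-1.74 ± 0.13) and Shmt2 (-1.62 ± 0.17) fell. Between regions 12 and 8, 5 of the 21 were higher and 0 lower, against 10.9% and 9.65% of all genes (0 lower also by DESeq2 and at an unadjusted p under 0.05 in edgeR's test), including Atf5 (1.57 ± 0.24) and Ppp1r15a (1.01 ± 0.17).

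Markers of several cell types differed between the same classes, and their part in these results was not tested. The counts below stand beside 22.9% of all genes tested that were called higher and 25.9% called lower. The 9 decidual markers other than Prl8a2 summed to 1918 to 1969 TMM-scaled CPM in the lowest class and 15477 to 27126 CPM in the highest, with 6 of 9 higher. Most of that sum came from Cryab, Prl3c1 and Erv3, named after their values were seen, which went from 182 to 354 CPM up to 12281 to 23553 CPM, while the other 6 went from 1614 to 1736 CPM to 3196 to 3574 CPM. All 8 natural killer cell markers were lower (777 to 2147 CPM, then 16.2 to 95.6 CPM), as were 7 of 8 smooth muscle markers (3110 to 5391 CPM, then 1702 to 2029 CPM). Of the 8 visceral endoderm markers 7 were higher, from 7.74 to 33.4 CPM up to 70.0 to 157 CPM, although Ttr, Afp, Apoa4 and Cubn were at 0 UMIs in the highest class of replicate 3. Their marker Rbp4 alone gave 74, 44 and 190 of 82, 62 and 218 UMIs in the lowest class. In the highest class it gave 183, 353 and 571 of 369, 385 and 1095 UMIs. The sum of these markers was highest in the second-highest class, at 347, 153 and 388 CPM. Of 7 trophoblast markers, 5 of them tested, 4 were higher and 1 lower (35.1 to 41.2 CPM, then 408 to 506 CPM). Of 6 endothelial markers 4 were higher (305 to 424 CPM, then 828 to 941 CPM), and of 7 macrophage markers 2 were higher and 5 lower. Plasma cells are rich in the same secretory genes, and their 6 markers summed to 14.9 to 38.7 CPM in the lowest and 6.91 to 11.8 CPM in the highest class, where Jchain had 0, 0 and 1 UMI and Tnfrsf17 0, 0 and 1 UMI. Of the 3 that were tested 0 were higher and 1 was lower. The immunoglobulin gene Ighm went from 139, 208 and 85 UMIs to 23, 17 and 22, and Igkc from 70, 6 and 9 UMIs to 14, 20 and 27, so that Igkc counts were higher in 2 of 3 libraries. Of the remaining lists, uterine gland had 1 of 5 tested markers higher and 0 lower, epiblast 2 of 3 higher and 0 lower, and maternal blood 0 of 5 higher and 1 lower. So few markers do not set these lists apart from all genes.

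**Figure D5:**
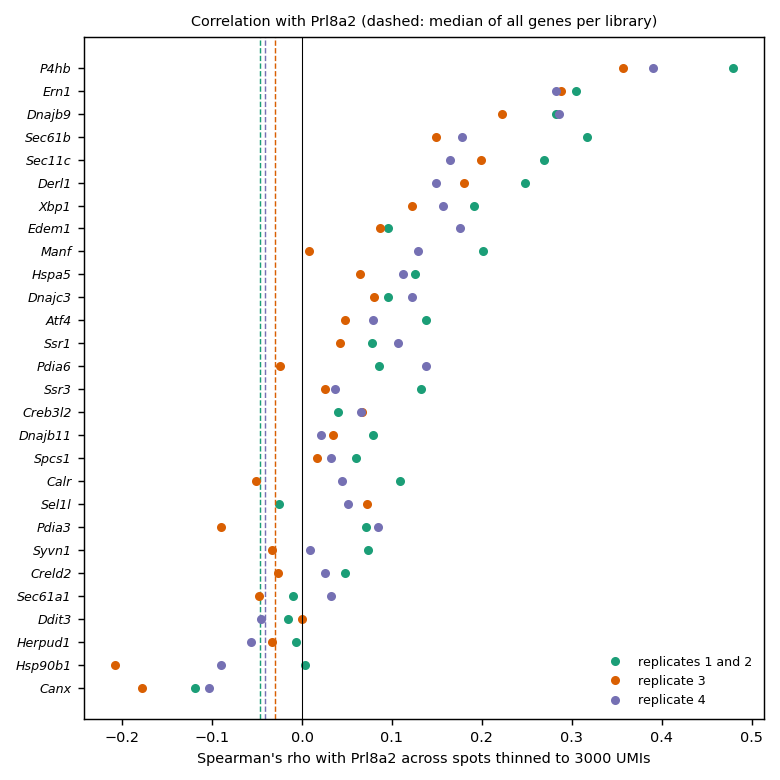
Spearman's rho with Prl8a2 across spots thinned to 3000 UMIs (x axis) for the 28 genes measured in every library (rows), 1 point per library, with dashed lines at the median of all genes. P4hb is highest in every library (0.48, 0.36 and 0.39), and Canx lies below 0 in all 3.

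Across single spots thinned to the same depth, rank correlations with Prl8a2 were mostly low. Spots were thinned to 3000 UMIs (1605, 1078 and 1083 spots), and 28 or 29 of the 35 genes reached the mean of 0.1 UMI per spot needed. The median rho with Prl8a2 was 0.090, 0.034 and 0.079 over these genes and -0.047, -0.030 and -0.041 over all genes measured. Prl8a2 itself was part of the thinned totals; with its UMIs removed before thinning, an alternative chosen after seeing the data, the medians were 0.141, 0.022 and 0.075. P4hb had rho of 0.48, 0.36 and 0.39, Ern1 0.30, 0.29 and 0.28, and Dnajb9 0.28, 0.22 and 0.29. Canx had -0.12, -0.18 and -0.10. Among the genes themselves the median rho was 0.064, 0.032 and 0.035 over 60 pairs within a role and 0.034, 0.020 and 0.033 over 318 pairs between roles. The pair with the highest mean was P4hb and Sec61b (0.21, 0.18 and 0.21). Spots of a library share its section, depth and neighbouring tissue, and such low values in sparse counts are given as a description only.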

How the data were processed

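Gene expression was measured on frozen sections of mouse uterus with 10x Visium, in 3 libraries of 1 group, 1 of which combined 2 biological replicates. The authors deposited whole-number UMI counts per gene and spot. They were made with Space Ranger 1.2.2 per the file headers, and Cell Ranger and the build mm10 are named per the submitters' processing notes. Alignment settings and gene annotation: not given in the sources used here. Spot positions and images were not used here.

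Spots with at least 1000 UMIs were kept, without a doublet caller, which does not apply to spots. Spots were ranked within each library by the Prl8a2 share of UMIs, with ties in the lower class, and counts were summed per library and class without Prl8a2. The sums were tested with edgeR 4.0.16 (quasi-likelihood, TMM, filterByExpr, library as a block, Benjamini-Hochberg over all genes tested) in R 4.3.3 with limma 3.58.1. The libraries pair the classes because every class comes from each library. How the classes of the combined library divide between replicates 1 and 2 is not known. Regions came from Leiden clustering (leidenalg 0.10.2, resolution 0.6, 15 neighbours, 20 components) on 1500 variable genes of a random set of genes without the listed genes; tests used the other set and the listed genes, on sums of at least 20 spots in at least 2 libraries. P-values rest on the spread left after class or region and library are fitted, over all sums of a fit and with information shared across genes. The SE of a log2 fold change was calculated back from the test, as its absolute value divided by the square root of the quasi-likelihood F statistic. The 3 libraries held 16915926, 27279702 and 29953072 UMIs, and their number limits the precision.

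The scripts were tested on simulated data. Every gene of the module is named, and of each pathway list up to 3 called genes per direction with the smallest p. Members, lists and tests were chosen with earlier results of these data known. The symbols Ero1a, Ero1b and Hm13 were matched as Ero1l, Ero1lb and H13. Ddit3 stands for 2 gene IDs, one with 0 UMIs; the other, with 3151 UMIs, was used. Alternatives covered scaling, DESeq2 1.42.0, filters, the block, classes, clustering, the reference and each left-out library.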

Additional observations from a re-analysis of the deposited data

How the results depend on the processing

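The counts of secretory pathway genes called between the highest and the lowest class stayed between 25 and 28 when 1 library was left out, and were 25 with no replicate block (main value 27). They fell to 12 with library size only and to 13 at a minimum of 2-fold. Against the second-highest class (main value 11) the count was 10 with no replicate block and 10 to 14 with 1 library left out, 17 with relative log expression scaling, 17 with DESeq2, 17 with Prl8a2 kept in library sizes, 26 with no minimum fold, 5 with library size only and 5 at 2-fold. Between the fine classes (main values 13 higher and 1 lower) it was 2 higher and 2 lower with library size only, 10 higher and 0 lower with no replicate block, and 10 to 14 higher and 0 to 1 lower with 1 library left out. The library pairing changed no other call of the classes than those named in the report.

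For the region with most Prl8a2 (24 higher) the count was 13 higher and 2 lower with library size only and 15 higher at 2-fold. For the region with most Prf1, 1 gene was higher in the main setting; the count was 0 with relative log expression scaling, DESeq2, resolution 0.3, the other gene set, pooled other spots and 2-fold, 2 with no filter, no replicate block, no minimum of UMIs and resolution 1.0, 3 at 5000 UMIs, 4 with library size only, 10 with no minimum fold, and 0 to 2 with 1 library left out. Against 7 lower genes in the main setting there were 4 with library size only, 4 at resolution 1.0, 4 at 2-fold, 1 at 5000 UMIs and 11 with no minimum fold. The region with most Myh11 had 15 lower at 2-fold (24). The region with most Apoa1 (3 higher, 0 lower) had 6 higher with library size only, 8 at resolution 0.3, 10 higher and 11 lower with no minimum fold, 0 higher and 15 lower with no minimum of UMIs, 0 higher and 14 lower at resolution 1.0, 1 lower against pooled other spots, and 3 to 5 higher and 0 to 1 lower with 1 library left out. Region 12 against region 8 (3 higher, 4 lower) gave 2 lower with relative log expression scaling, 1 lower with DESeq2, and 1 to 4 higher and 0 to 5 lower with 1 library left out. The median rho with Prl8a2 (0.068) was 0.112 with no thinning and 0.034 in replicate 3 alone. The cause of these shifts was not tested, other than that a higher minimum fold leaves less to call.

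Some log2 fold changes changed sign, and of these genes only Ddit3 had passed in the comparison concerned. For the outer classes this was so with library size only for Eif2ak3 (-0.092), Hsp90b1 (-0.31), Creld2 (-0.00537), Hyou1 (-0.20), Canx (-0.45) and Herpud1 (-0.078). For the upper classes it was so with library size only for Canx (-0.21) and Pdia4 (-0.15), and with 3 classes for Pdia4 (-0.000617). In the region with most Prl8a2, resolution 0.3 gave Ddit3 -0.090 (1.27 and called in the main setting), Trib3 -0.011, Herpud1 -0.047, Sdf2l1 0.83 and Pdia4 0.14. There the other gene set gave Trib3 -0.030, Sdf2l1 0.78 and Pdia4 0.11, a minimum of 5000 UMIs gave Sdf2l1 0.57 and Pdia4 0.062, library size only gave Hsp90b1 -0.090, Creld2 -0.32, Canx -0.33 and Sec61a1 -0.013, and pooled other spots gave Creld2 -0.0095. At resolution 0.3, with the other gene set and at 5000 UMIs the region with most Prl8a2 had sums from 3 libraries, against 2 in the main setting. Between regions 12 and 8 library size only gave Ern1 -0.11, Dnajc3 -0.074 and Pdia3 -0.079, and no filter gave Ern1 -0.059, Dnajc3 -0.021 and Pdia3 -0.027. Between the fine classes library size only gave Atf6 -0.095, Creb3l2 -0.26, Sdf2l1 -0.14, Canx -0.087 and Pdia4 -0.12, and no filter gave Creb3l2 -0.00487.

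Values without replicates 1 and 2, without replicate 3 and without replicate 4, in that order, differed in sign for 8 results. For the outer classes they were 0.031, 0.11 and -0.052 for Canx and -0.18, 0.013 and -0.096 for Pdia4. In the region with most Prl8a2 they were -0.53, -0.25 and 0.40 for Sdf2l1. Between regions 12 and 8 they were 0.17, -0.021 and 0.10 for Pdia3, 0.0066, -0.21 and -0.27 for Pdia6, and 0.11, -0.22 and -0.36 for Sec61a1. Between the fine classes they were -0.082, 0.19 and -0.058 for Creb3l2 and -0.14, 0.042 and 0.018 for Creld2. Scarce genes were limited by depth: Derl3 and Trib3 had 54 and 56 UMIs in the lowest class.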

Other observations

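Of 12 measured genes in a list of further stress sensors and membrane-bound transcription factors, with proteases that cleave them, 3 were higher in the highest than in the lowest Prl8a2 class and 1 was lower, against 22.9% and 25.9% of all genes. The median log2 fold change was 0.01. Creb3l3, a factor known from liver and intestine, had 1.70, 3.74 and 0.919 CPM in the lowest class (46 UMIs, at least 6 per library) and 110, 125 and 101 CPM in the highest. Its log2 fold change was 5.69 ± 0.26 (edgeR's quasi-likelihood test, adjusted p = 1.1e-08). Creb3 (0.89 ± 0.08) and Mbtps2, a protease that cleaves Atf6 (0.68 ± 0.17), rose as well. Creb3l1, known for its role in collagen secretion, fell from 17.8, 14.2 and 18.1 CPM to 2.07, 0.909 and 2.57 CPM (-3.15 ± 0.25, adjusted p = 6.5e-07). The libraries did not overlap for Creb3l3 or for Creb3l1.

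Of 13 genes of the cytosolic heat shock response 3 were higher and 1 lower, against the same 22.9% and 25.9%, with a median of -0.09 against -0.07 over all genes. Dnajb1, a cytosolic J-domain protein, went from 21.7, 18.3 and 25.0 CPM to 150, 65.1 and 197 CPM (2.58 ± 0.22), and Bag3 (1.21 ± 0.11) and Hsph1 (1.11 ± 0.13) rose. Hspa1b fell (-1.09 ± 0.28, adjusted p = 0.0051). It is nearly identical to Hspa1a, and how reads that match both genes were treated is not given in the sources used here.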
